A study of Mus musculus with 20 samples.

Results

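The proteasome, the enzyme complex that degrades ubiquitin-tagged proteins, was followed through its subunit genes in muscle of mice with a mutant SOD1 transgene and in muscle after nerve crush. The members were all probe sets (groups of short array probes for 1 transcript) whose only gene symbol began with Psma, Psmb, Psmc, Psmd or Psme and a digit. They came to 60 of 10748 probe sets and stood for 38 of 6603 genes with a symbol of their own. By subcomplex these were 15 genes of the 20S core on 23 probe sets, 17 genes of the 19S regulator on 28, 3 activators on 6, and 3 chaperones of 19S assembly on 3. Psmb8, Psmb9 and Psme2 were not analysed here, so Psmb10 was the only inducible catalytic subunit.

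The 20 arrays fell into 5 groups of 4, all from female C57BL/6 mice aged 14 weeks. Gastrocnemius, a calf muscle, and triceps, a forelimb muscle, came from mice with the human SOD1G93A transgene at a symptomatic stage (SOD1), a model of amyotrophic lateral sclerosis. Gastrocnemius was also taken 2 weeks after the sciatic nerve had been pinched with forceps for 30 s at 12 weeks of age (crush), as a control for loss of innervation. Non-transgenic mice (NTg) gave untreated gastrocnemius and triceps. The sources name neither the genotype of the crushed mice nor the promoter of the transgene, and a sham operation was not analysed here. Both muscles were taken from 4 mice of each genotype, so gastrocnemius and triceps arrays share mice, without a stated link between a replicate and a mouse. One free-text field calls NTg triceps replicate 4 gastrocnemius, while its title, source and tissue fields say triceps, which was followed here.

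As background, the 20S core is a barrel of stacked rings. The outer alpha rings (Psma genes) gate the entry of substrates, and the inner beta rings (Psmb genes) hold the cutting sites in Psmb5, Psmb6 and Psmb7, which the inducible Psmb8, Psmb9 and Psmb10 replace in the immunoproteasome. The 19S regulator caps the barrel: its ATPases (Psmc genes) unfold substrates and its other subunits (Psmd genes) bind and remove ubiquitin. The activators open the core without ubiquitin or ATP. Psme1 takes part in a ring induced by interferon, Psme3 forms a nuclear ring, and Psme4 is a large single-chain cap. In wasting muscle, proteasome genes are textbook members of the programme of protein breakdown, and the transcription factor Nfe2l1 raises them together when proteasome activity falls short.

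The stretch of 250 bases before the gene start is shown for 5 members: both genes that passed the test below (Psma5 and Psmd11), a catalytic subunit (Psmb5), a 19S gene that was lower in 3 of 4 crushed muscles (Psmd2) and the largest activator (Psme4). RefSeq windows (build GRCm38.p6) were found for 32 of the 38 genes; Psmb1, Psmb2, Psmb7, Psmc3, Psmd3 and Psmd7 had none. All are written 5′ to 3′ along the gene, and capitals mark the motif matches described after them.
Psma5: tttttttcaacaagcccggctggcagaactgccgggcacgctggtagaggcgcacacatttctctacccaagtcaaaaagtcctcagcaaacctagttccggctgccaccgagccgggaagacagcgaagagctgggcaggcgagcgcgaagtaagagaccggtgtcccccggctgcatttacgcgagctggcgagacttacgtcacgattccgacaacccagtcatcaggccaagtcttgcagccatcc
Psmb5: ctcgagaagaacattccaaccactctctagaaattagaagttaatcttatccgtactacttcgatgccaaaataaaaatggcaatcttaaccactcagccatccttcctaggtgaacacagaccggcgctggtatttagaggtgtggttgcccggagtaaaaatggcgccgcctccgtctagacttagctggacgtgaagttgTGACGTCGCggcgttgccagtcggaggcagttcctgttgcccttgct
Psmd11: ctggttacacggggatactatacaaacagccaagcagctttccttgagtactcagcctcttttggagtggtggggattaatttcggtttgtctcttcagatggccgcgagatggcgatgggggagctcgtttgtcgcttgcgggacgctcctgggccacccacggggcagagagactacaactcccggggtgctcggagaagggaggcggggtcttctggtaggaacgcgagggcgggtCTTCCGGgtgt
Psmd2: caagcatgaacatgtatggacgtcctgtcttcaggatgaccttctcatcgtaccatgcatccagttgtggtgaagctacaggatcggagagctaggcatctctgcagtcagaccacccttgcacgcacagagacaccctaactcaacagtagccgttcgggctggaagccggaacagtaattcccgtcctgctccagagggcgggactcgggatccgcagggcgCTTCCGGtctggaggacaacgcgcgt
Psme4: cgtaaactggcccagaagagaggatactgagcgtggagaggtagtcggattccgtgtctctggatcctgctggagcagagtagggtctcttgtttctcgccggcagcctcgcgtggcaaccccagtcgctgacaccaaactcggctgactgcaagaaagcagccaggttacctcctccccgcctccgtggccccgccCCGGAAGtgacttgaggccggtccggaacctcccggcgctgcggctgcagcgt
These windows lie at chr3:108256676-108256925, plus strand, for Psma5, chr14:54617996-54618245, minus strand, for Psmb5, chr11:80428365-80428614, plus strand, for Psmd11, chr16:20651402-20651651, plus strand, for Psmd2, and chr11:30771525-30771774, plus strand, for Psme4.

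Motifs were searched on both strands of each 250-base window, and matches were not required to be separate from one another. CCGGAAG, a core recognised by ETS transcription factors, stood in 8 of 14 windows of 19S genes, in 0 of 12 of 20S genes, in 2 of 3 of activators and in 0 of 3 of chaperones. That is 31.2% of the 32 windows, and 7.05% of all 27025 windows held it. In Psmd11, Psmd2 and Psme4 the match begins 11, 26 and 53 bases before the start, on the minus strand for Psmd11 and Psmd2 and on the plus strand for Psme4. TGACNNNGC, the core of the antioxidant response element bound by Nfe2l1 and its relatives, stood in 5 of 32 windows (Psmb5, Psmb6, Psmc6, Psmd12 and Psmd9), or 15.6%, against 10.1% of all windows. The Psmb5 match begins 47 bases before the start. CCAAT stood in 37.5% of the windows and in 34.5% of all. The interferon-stimulated element core (GAAA, any 2 bases, GAAA) stood in 9.38% and in 3.04% of all, and TTCNNNGAA, the gamma-activated site, in 0 of 32 and in 7.18% of all. A match describes letters only, and binding was not measured.

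Values are log2 signals as deposited, and differences are between group means on that scale. Array medians lay between 6.61 and 6.76. After the dimmest 30% of probe sets were left out, 7523 were tested, among them 56 of the 60 members and 37 of the 38 genes. The probe sets below the filter were 1 each of Psma6, Psmc6, Psmd11 and Psmd10, and Psmd10 had no other. A gene is given by its brightest probe set unless stated, and a difference is called where limma's p, adjusted over all 7523 probe sets by Benjamini-Hochberg, is under 0.05. All 13 listed markers of skeletal muscle fibres passed the filter. In whole muscle, fewer cells of a type and less RNA per cell cannot be told apart.

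Crush replicate 4 stood apart from the other crush arrays. The median 20S gene of that array lay 0.61 above the NTg gastrocnemius mean, while crush replicates 1, 2 and 3 lay at -0.02, 0.03 and -0.04. For 19S genes the same array lay at 0.70, and replicates 1, 2 and 3 at -0.01, -0.09 and -0.06. It was the highest of the 4 crush arrays for 14 of 15 genes of the 20S core and 16 of 17 of the 19S regulator, and for 36.1% of all 4832 tested genes. Chrna1, the acetylcholine receptor subunit that muscle raises when it loses its nerve, was at 6.97, 7.28, 7.40 and 11.34 in crush replicates 1 to 4. It was at 8.57, 10.23, 10.30 and 10.85 in SOD1 gastrocnemius and at 6.55, 6.24, 6.81 and 6.20 in NTg gastrocnemius. The part that the degree of nerve loss plays in the proteasome values was not tested. All 5 groups share 1 estimate of the spread, so calls in comparisons without crush arrays can also change when this array is left out. No other array was left out of a comparison that its group did not enter.

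The array medians of both large subcomplexes lay higher in SOD1 than in NTg muscle, and those of the activators overlapped. Each array's median over 20S genes, taken relative to the NTg mean of its muscle, was 0.15, 0.38, 0.31 and 0.33 in SOD1 gastrocnemius, against -0.06, 0.04, 0.00 and -0.02 in NTg gastrocnemius. For 19S genes it was 0.09, 0.29, 0.30 and 0.52 in SOD1 gastrocnemius, with NTg arrays between -0.01 and 0.03. Every SOD1 gastrocnemius array thus lay above every NTg gastrocnemius array for both subcomplexes. In triceps the 20S median was 0.21, 0.23, 0.14 and 0.32 in SOD1 muscle, against -0.04, 0.24, -0.09 and -0.04 in NTg muscle. These 20S groups overlapped, because NTg triceps replicate 2 lay above 3 of the 4 SOD1 arrays. The 19S median was 0.32, 0.47, 0.24 and 0.54 in SOD1 triceps, against 0.01, 0.12, -0.03 and -0.06 in NTg triceps, and these groups did not overlap. Activator medians ran from -0.23 to 0.13 in SOD1 gastrocnemius, from -0.44 to 0.03 in crushed gastrocnemius and from -0.08 to 0.05 in NTg gastrocnemius. In triceps they ran from -0.01 to 0.11 in SOD1 muscle and from -0.10 to 0.26 in NTg muscle. The activator groups overlapped throughout.

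**Figure D1:**
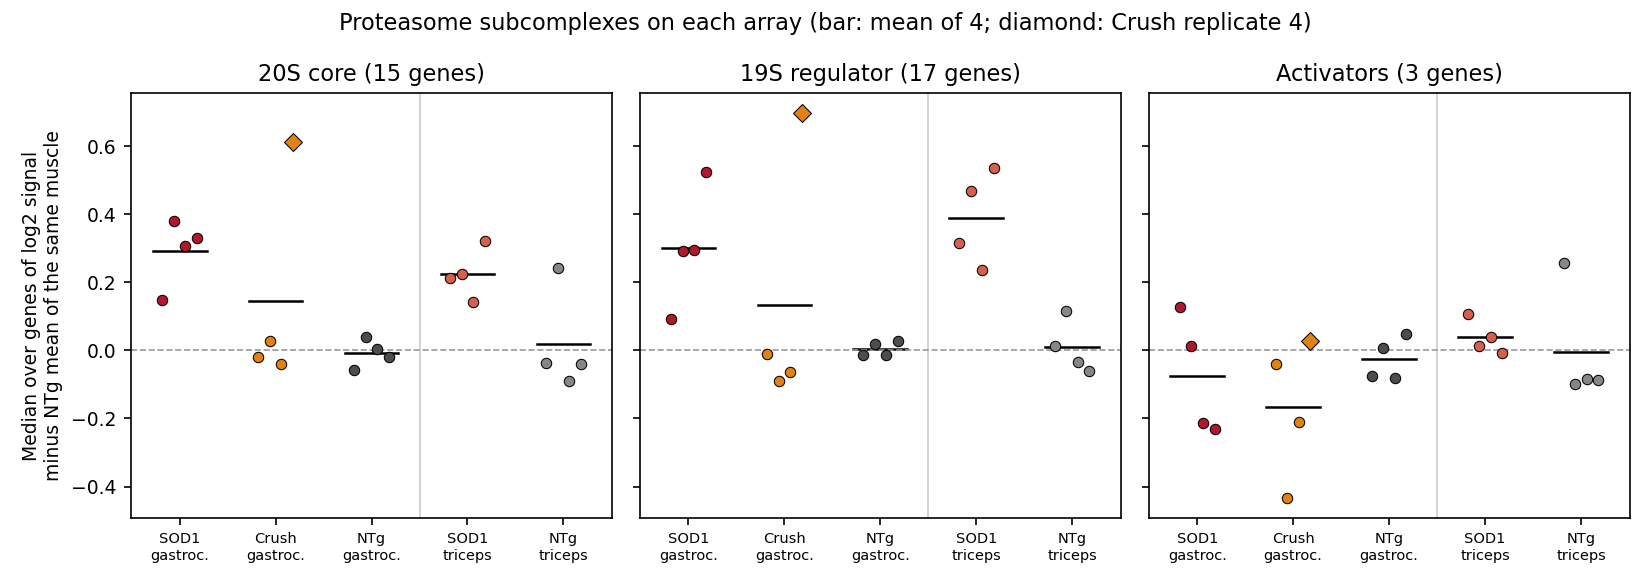
Median log2 signal over the genes of each subcomplex on every array, minus the NTg mean of the same muscle (vertical axis, log2), for the 5 groups; bars are means of 4 arrays and the diamond is crush replicate 4. SOD1 gastrocnemius lies above NTg gastrocnemius for 20S and 19S genes, and crush replicate 4 lies at 0.61 and 0.70 while the other crush arrays lie near 0.

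The first comparison asked which subunits differed in symptomatic SOD1 gastrocnemius. Psma5, an alpha ring subunit, and Psmd11, a lid subunit of the 19S regulator, rose, and no subunit fell. These were 2 of 56 member probe sets, or 3.57%, where 12.0% of all tested probe sets were called (limma, 4 arrays per group). Leaving out 1 array gave 16 calls without crush replicate 4, 8 without SOD1 replicate 1, 0 without SOD1 replicate 2 or 4 or NTg replicate 1 or 4, and 1 without SOD1 replicate 3 or NTg replicate 2 or 3. At an unadjusted p under 0.05 there were 22 members, or 39.3%, and 29.5% of all. The arrays of the 2 groups did not overlap, with SOD1 higher, for 23 of 56 members (41.1%) and for 12.7% of all probe sets. They did not overlap, with SOD1 lower, for 1 member, the second of 3 Psme4 probe sets, and for 13.3% of all.

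Among alpha ring genes, 7 of 7 were higher in SOD1 gastrocnemius, by 0.17 to 0.68. Psma5 had 9.10, 9.51, 9.38 and 9.52 in SOD1 gastrocnemius, against 8.58, 8.72, 8.80 and 8.67 in NTg gastrocnemius. Its lowest SOD1 array lay above its highest NTg array, and the difference was 0.68 (1.61-fold, 95% interval 1.25 to 2.06, adjusted p = 0.0188). Its other probe set differed by 0.41 (adjusted p = 0.0668). The Psma5 call was lost without SOD1 replicate 2 or 4 or NTg replicate 1 or 4, with adjusted p up to 0.0744. Of the other alpha genes, Psma7 differed by 0.43 (adjusted p = 0.0953) and Psma6 by 0.31.

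Of the beta ring genes without a cutting site, 3 of 4 were higher. Psmb3 differed by 0.59 (adjusted p = 0.0802), Psmb1 by 0.46 and Psmb4 by 0.37, while Psmb2 differed by -0.01. Psmb4 was at 10.00, 10.31, 10.09 and 10.34 in SOD1 gastrocnemius, against 9.82, 9.84, 9.83 and 9.79 in NTg gastrocnemius. These groups did not overlap, and the NTg arrays lay close together.

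None of the constitutive cutting subunits was called. Psmb5, which carries the chymotrypsin-like site, was at 10.04, 10.52, 10.26 and 10.56 in SOD1 gastrocnemius, against 9.99, 9.83, 9.73 and 9.69 in NTg gastrocnemius. Its groups did not overlap, and the difference of 0.54 missed the threshold (adjusted p = 0.0544). Psmb6, with the caspase-like site, differed by 0.24 (95% interval -0.06 to 0.53), and Psmb7, with the trypsin-like site, by -0.18 (-0.47 to 0.10). Psmb10, the inducible counterpart of Psmb7, was at 6.29, 6.53, 6.30 and 5.80 in SOD1 gastrocnemius, against 6.51, 6.49, 6.04 and 6.04 in NTg gastrocnemius. Those groups overlapped fully, with a difference of -0.04 (-0.49 to 0.41). The ratio of inducible to constitutive subunits could be looked at only for Psmb10 and Psmb7, and both intervals include 0.

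In the 19S base, 6 of 6 ATPases were higher in SOD1 gastrocnemius, by 0.26 to 0.85. Psmc4 had the largest difference of all members, 0.85, with a wide interval of 0.16 to 1.54 (adjusted p = 0.0938). It was at 8.28, 8.54, 8.70 and 9.29 in SOD1 gastrocnemius, against 7.92, 7.65, 8.05 and 7.78 in NTg gastrocnemius, so the groups did not overlap. Its other probe set was at 8.51, 8.75, 8.55 and 8.90 in SOD1 gastrocnemius, against 8.20, 8.25, 8.30 and 8.31 in NTg gastrocnemius. That difference was smaller, at 0.41, and its adjusted p of 0.0832 also missed. Psmc3 differed by 0.41 and Psmc2 by 0.34. Of the other base subunits, the ubiquitin receptor Psmd4 differed by 0.38 (adjusted p = 0.133), the scaffold Psmd2 by 0.20 and the scaffold Psmd1 by -0.03.

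Of 8 lid genes, 7 were higher. Psmd11, which helps to hold core and regulator together, was at 10.46, 10.63, 10.58 and 10.75 in SOD1 gastrocnemius, against 10.00, 10.12, 10.04 and 10.12 in NTg gastrocnemius. The groups did not overlap, and the difference was 0.54 (1.45-fold, 95% interval 1.15 to 1.84, adjusted p = 0.0377). Of its 3 other tested probe sets, differences were 0.44 and 0.40 for a pair and -0.00 for the third, and the mean over its probe sets was not called (0.34, adjusted p = 0.129). The call was also lost on leaving out any NTg gastrocnemius array or SOD1 replicate 2, 3 or 4, with adjusted p up to 0.124, and after subtraction of each array's 75th percentile (0.0560). Psmd13 differed by 0.63 (adjusted p = 0.0637). Psmd14, the enzyme that cuts ubiquitin off the substrate, was at 8.95, 8.96, 9.08 and 9.08 in SOD1 gastrocnemius, against 8.63, 8.64, 8.63 and 8.80 in NTg gastrocnemius. The groups did not overlap and differed by 0.34 (adjusted p = 0.0832). Psmd6 was the lowest of the 19S genes at -0.06.

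The activators went the other way in sign, with small differences: Psme1 by -0.14, Psme4 by -0.05 and Psme3 by -0.03. The second Psme4 probe set was at 8.93, 8.54, 8.45 and 8.23 in SOD1 gastrocnemius, against 8.96, 9.13, 9.02 and 8.95 in NTg gastrocnemius, and it differed by -0.48. Of the assembly chaperones, Psmd5 differed by 0.45 (adjusted p = 0.0789) and Psmd9 by -0.02. Psmd10 was under the filter, at 5.48, 5.74, 5.80 and 5.81 in SOD1 gastrocnemius, against 5.54, 5.48, 5.04 and 5.35 in NTg gastrocnemius.

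The median difference was 0.25 over the 15 genes of the 20S core (12 higher), 0.28 over the 17 genes of the 19S regulator (15 higher), -0.05 over the 3 activators (0 higher) and 0.01 over all 4832 genes (51.0% higher). Without crush replicate 4 the group means here stayed as they were, but the spread shared by the fit was smaller, and 16 of 56 members were called, all higher. That is 28.6% of the members, where 17.8% of all probe sets were called. They stood for 13 genes: Psma5, Psma7, Psmb1, Psmb3, Psmb4 and Psmb5 of the 20S core, Psmc3, Psmc4, Psmd4, Psmd11, Psmd13 and Psmd14 of the 19S regulator, and the chaperone Psmd5. No activator was among them.

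**Figure D2:**
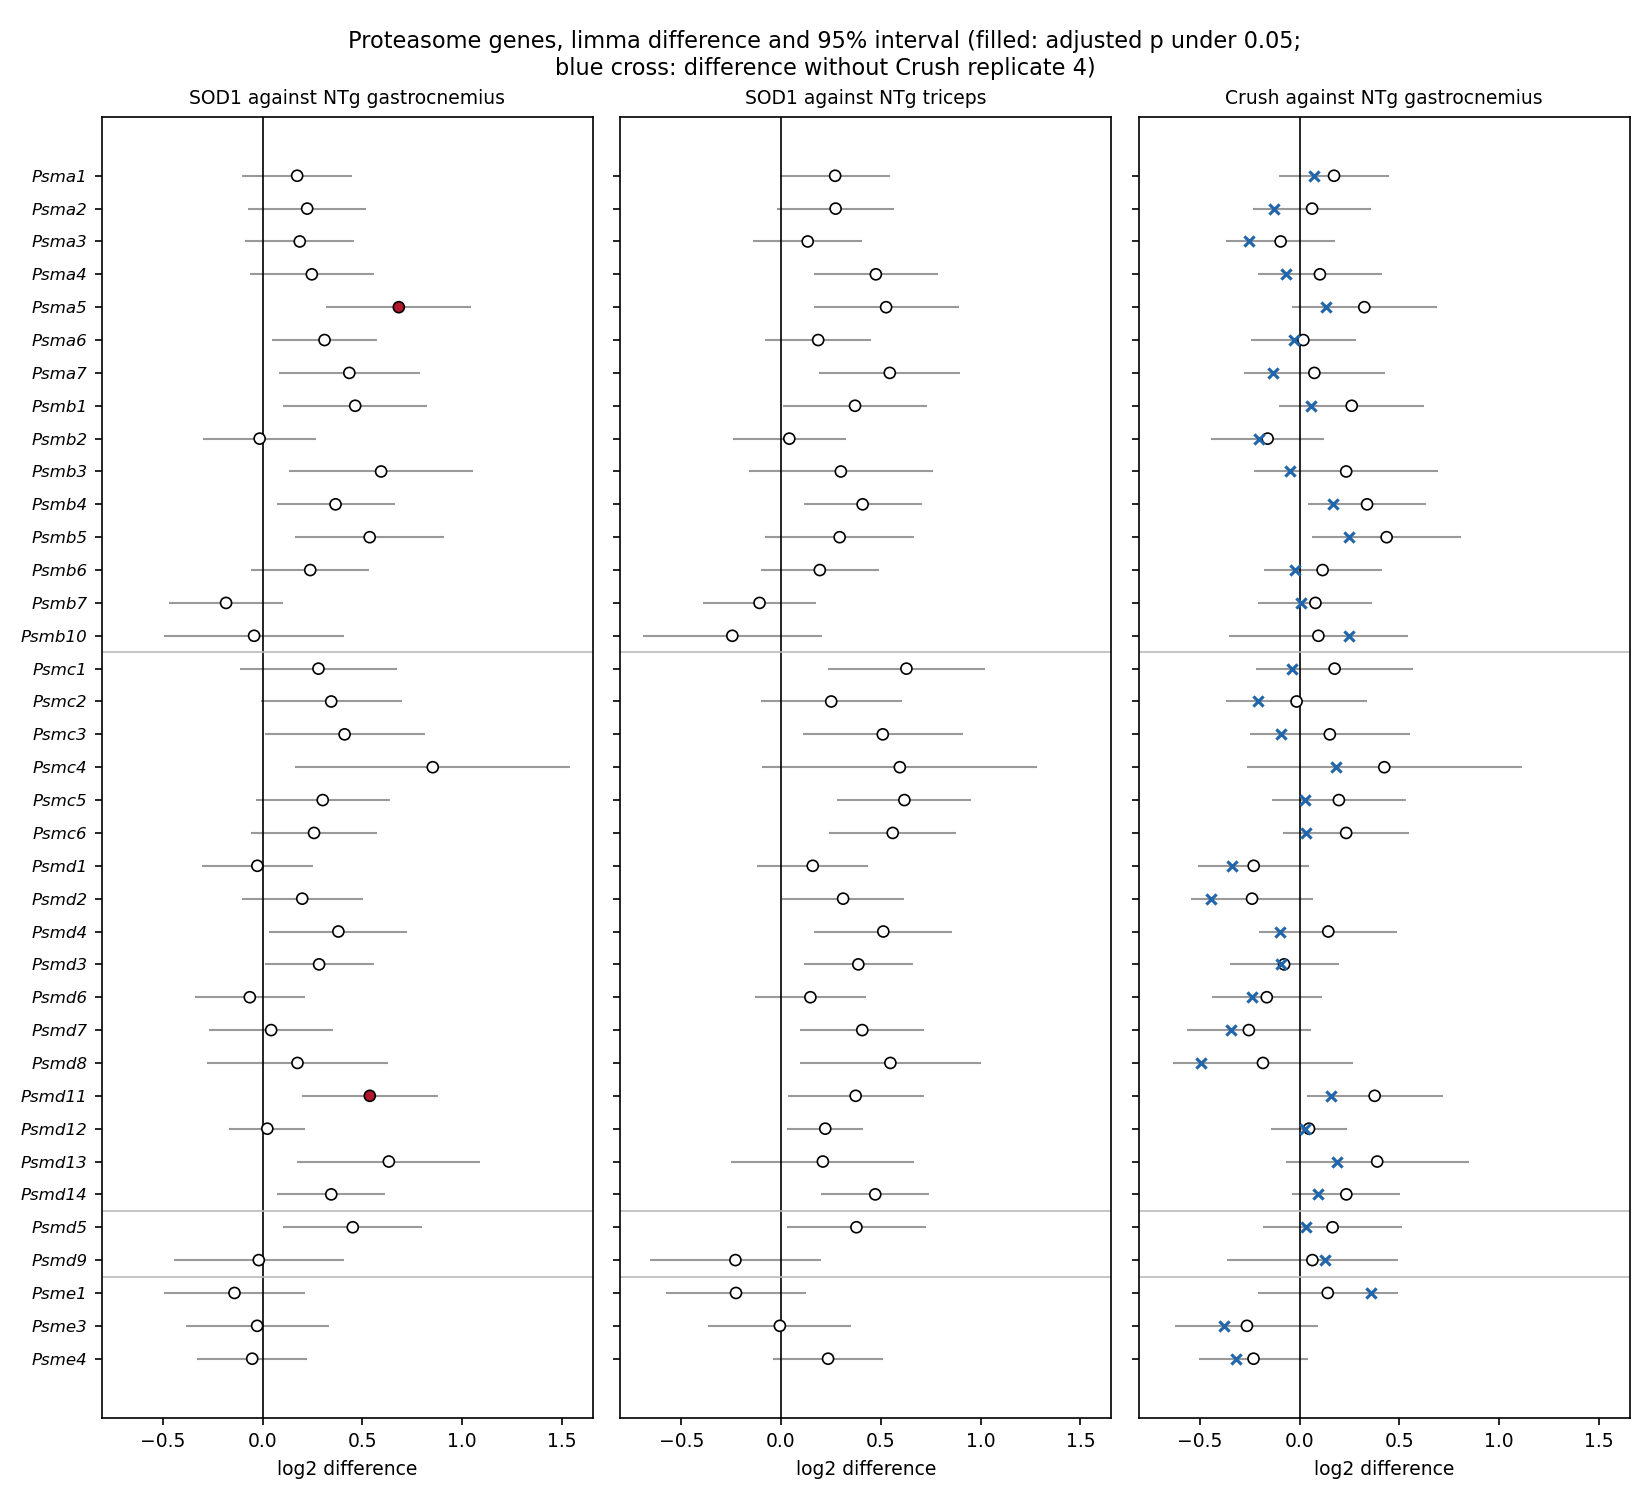
Difference in log2 signal (horizontal axis) of the 37 tested genes by subcomplex in 3 comparisons, with 95% intervals from limma; filled points are called and blue crosses give the crush difference without crush replicate 4. Psma5 and Psmd11 are called in SOD1 gastrocnemius, all 17 genes of the 19S regulator lie above 0 in SOD1 triceps, and the crosses of most 20S and 19S genes lie to the left of their points.

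The next comparison took SOD1 triceps against NTg triceps. No member was called among 56, where 0.239% of all probe sets were, and 25 members (44.6%) and 15.2% of all had an unadjusted p under 0.05. SOD1 arrays lay above NTg arrays without overlap for 19 of 56 members (33.9%) and for 4.69% of all probe sets, and for no member did they lie below. Leaving out NTg triceps replicate 1 gave 1 call. These 19 comprised 13 probe sets of the 19S regulator and 6 of the 20S core.

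The ATPases led in triceps, with 6 of 6 higher and a median of 0.58. Psmc5 was at 9.50, 9.64, 9.34 and 9.82 in SOD1 triceps, against 9.07, 8.77, 8.95 and 9.04 in NTg triceps. The groups did not overlap and differed by 0.62 (1.53-fold, 95% interval for the log2 difference 0.28 to 0.95, adjusted p = 0.109). Psmc1 differed by 0.63 (adjusted p = 0.156), Psmc4 by 0.60 (0.383) and Psmc6 by 0.56 (0.120). The other base and lid genes were all higher too, from 0.15 for Psmd6 to 0.55 for Psmd8. Psmd4 was at 9.55, 9.69, 9.51 and 9.61 in SOD1 triceps, against 9.10, 9.06, 9.13 and 9.02 in NTg triceps. Its groups did not overlap, the difference was 0.51 (adjusted p = 0.192), and its other probe set differed by 0.91 (adjusted p = 0.0876).

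In the 20S core, 13 of 15 genes were higher in SOD1 triceps, led by Psma7 (0.54, adjusted p = 0.171), Psma5 (0.53, adjusted p = 0.202) and Psma4 (0.48, adjusted p = 0.177). The 2 lower genes were Psmb10 at -0.24 (-0.69 to 0.21) and Psmb7 at -0.11 (-0.39 to 0.18). Psmb5 differed by 0.29 and Psmb6 by 0.19. Psma5 was at 9.26, 9.69, 9.29 and 9.66 in SOD1 triceps, against 8.87, 9.34, 8.67 and 8.93 in NTg triceps. The groups overlapped through NTg replicate 2 alone. The activators differed by -0.23 for Psme1, -0.01 for Psme3 and 0.24 for Psme4. The median difference was 0.27 for 20S, 0.41 for 19S, -0.01 for activators and 0.00 for all genes.

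Without crush replicate 4 in the shared spread, 13 of 56 members were called in triceps, all higher. That is 23.2%, where 2.22% of all probe sets were called. They stood for 11 genes: Psma4, Psma5, Psma7 and Psmb4 of the 20S core and Psmc1, Psmc5, Psmc6, Psmd4, Psmd8, Psmd11 and Psmd14 of the 19S regulator. Psma5, Psma7, Psmb4, Psmd4, Psmd11 and Psmd14 were called in both muscles in that fit.

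The SOD1 effect in gastrocnemius minus that in triceps tested whether the muscles differed. No member was called among 56 and 0% of all probe sets were, with or without crush replicate 4. At an unadjusted p under 0.05 there were 2 members, or 3.57%, a smaller share than the 9.44% of all probe sets. They were the second probe sets of Psmd4 (-0.72, 95% interval -1.35 to -0.09) and Psme4 (-0.68, -1.31 to -0.05). The median over genes was 0.04 for 20S, -0.13 for 19S and -0.02 for activators, against 0.00 for all genes. Between Psmd8 at -0.37 and Psmd13 at 0.42, the single genes spanned both directions. The interval for Psmd8, from -1.01 to 0.27, shows how little 4 arrays per group limit a difference between muscles.

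**Figure D3:**
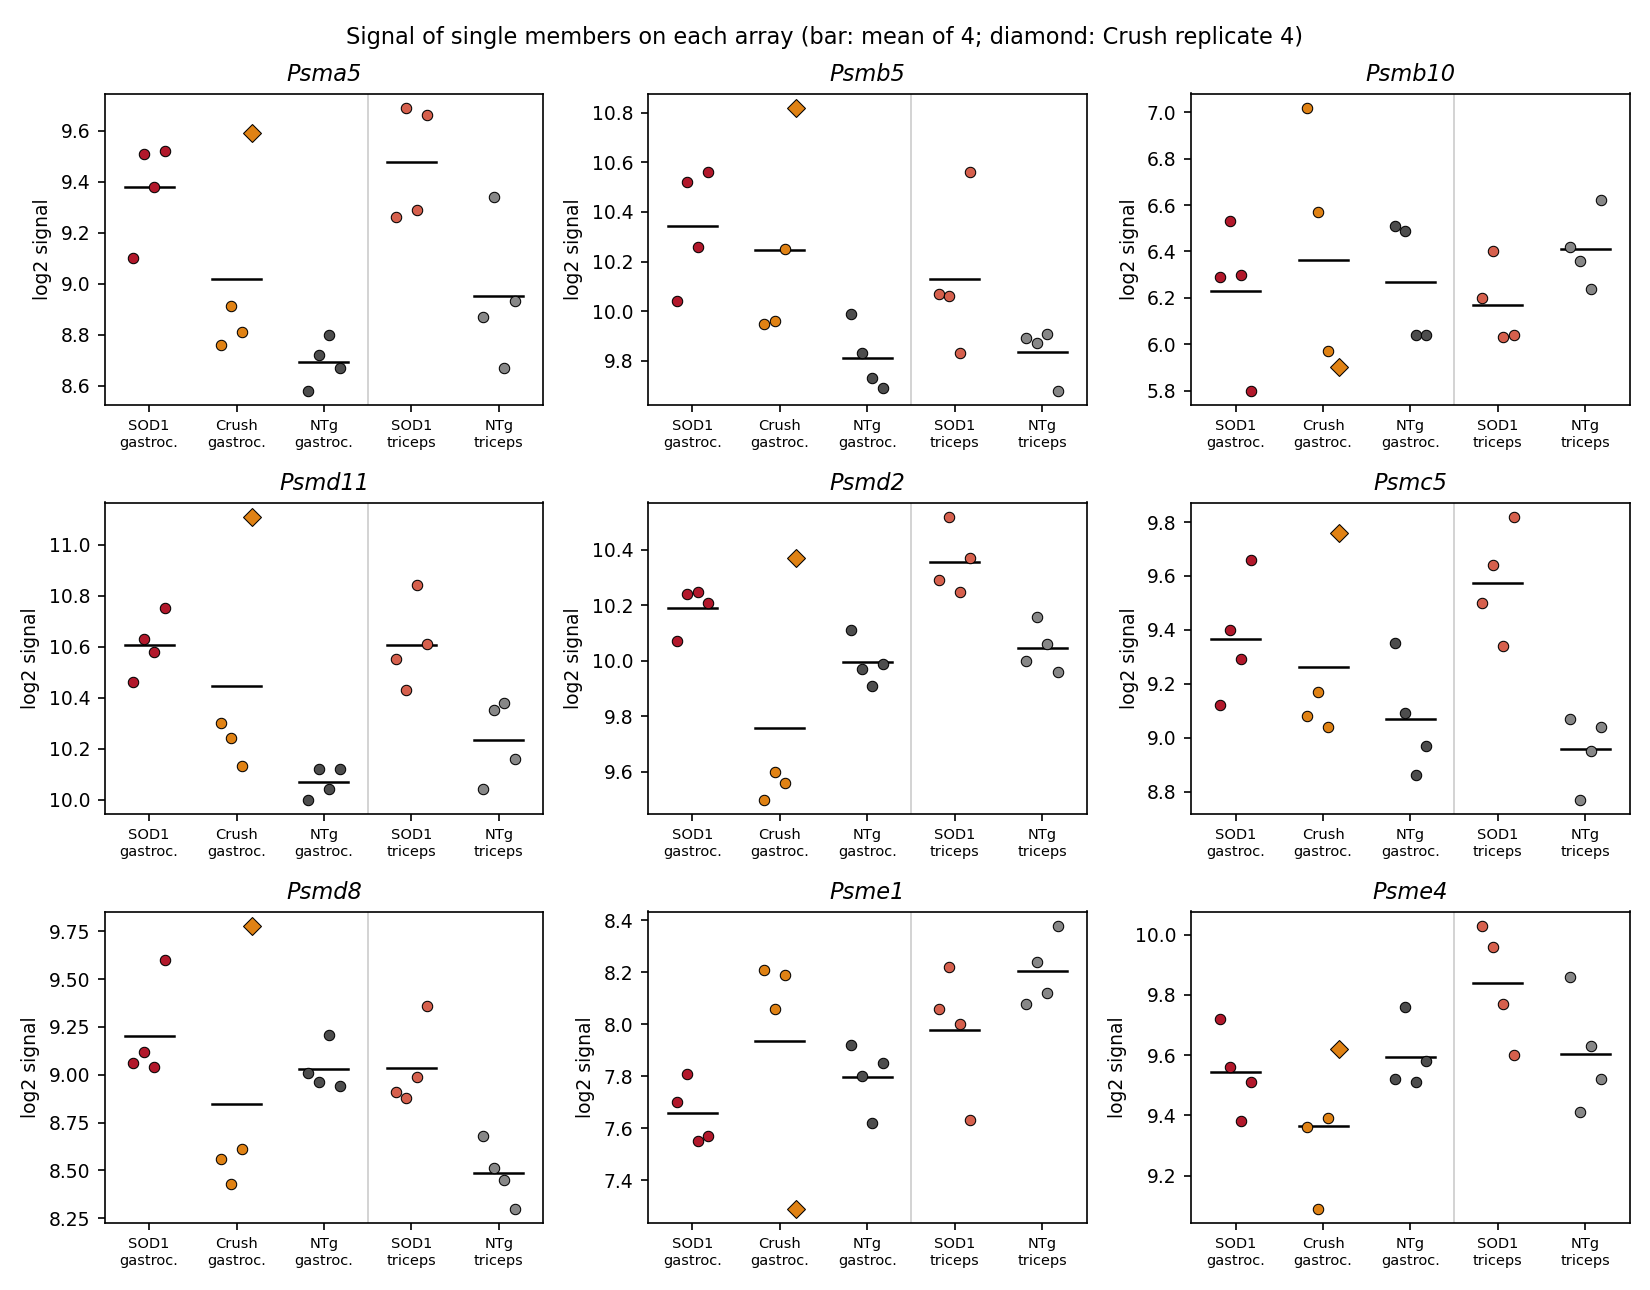
Log2 signal (vertical axes, scaled for each gene) of 9 members on every array in the 5 groups; bars are means of 4 arrays and the diamond is crush replicate 4. Psma5 and Psmd11 are higher in SOD1 than in NTg gastrocnemius on every array, Psmd2 and Psmd8 are lower on crush replicates 1 to 3 than on any NTg gastrocnemius array, and Psme1 is lowest on crush replicate 4.

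The crush comparison asked what nerve injury did to these genes 2 weeks later. With all 4 arrays no member was called, where 4.13% of all probe sets were, and 4 members (7.14%) and 20.7% of all had an unadjusted p under 0.05. The arrays lay above NTg without overlap for 2 of 56 members (Psmb4 and Psmd11) and for 6.94% of all. The median difference was 0.10 for 20S, 0.14 for 19S and -0.23 for activators, against 0.03 for all genes. The largest values were those of Psmb5 (0.44, adjusted p = 0.168), Psmb4 (0.34) and Psma5 (0.32) in the 20S core and of Psmc4 (0.42), Psmd13 (0.39) and Psmd11 (0.38) in the 19S regulator. The lowest were those of Psmb2 (-0.16) and Psma3 (-0.09) in the core, of Psmd7 (-0.25), Psmd2 (-0.24) and Psmd1 (-0.23) in the regulator, and of Psme3 (-0.26) and Psme4 (-0.23) among activators, where Psme1 was at 0.14. Leaving out crush replicate 1, 2 or 3 instead moved the 20S median to 0.16, 0.17 and 0.20.

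Without crush replicate 4 the direction of the large subcomplexes turned, to a median of -0.02 for 20S and -0.09 for 19S. Activators lay at -0.32 and all genes at 0.03. That array stood out by high values of these same 20S and 19S genes, so leaving it out lowers their crush means by construction. Psmd2, a scaffold of the 19S base, was then the only member called, 1 of 56 where 5.25% of all probe sets were. It was at 9.50, 9.60, 9.56 and 10.37 in crushed gastrocnemius, against 10.11, 9.97, 9.91 and 9.99 in NTg gastrocnemius. Without replicate 4 it fell by 0.44 (adjusted p = 0.0116), and with that array the difference was -0.24 (adjusted p = 0.375). Psmd8, a lid subunit, had the same shape, with 8.56, 8.43, 8.61 and 9.78 in crushed gastrocnemius, against 9.01, 8.96, 9.21 and 8.94 in NTg gastrocnemius. Its difference without replicate 4 was -0.49 (adjusted p = 0.0515).

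Crush replicates 1 to 3 lay below all NTg arrays for 13 of 56 members (23.2%) and for 14.3% of all probe sets. They lay above them for 3 members (5.36%) and 13.9% of all. With replicate 4 included, no member and 9.44% of all lay below. The array left out was high for most members, so the shares of all probe sets are not an even baseline. The 13 were 4 probe sets of the 20S core, 6 of the 19S regulator and 3 of Psme4. The 3 that lay above were Psmb4, Psmd11 and Psme1. Psmd11 stands on both sides because its brightest probe set was higher and another was lower on those arrays. Psme1 was at 8.21, 8.06, 8.19 and 7.29 in crushed gastrocnemius, against 7.92, 7.80, 7.62 and 7.85 in NTg gastrocnemius. Its first 3 crush arrays were the highest of these 8 arrays and its last was the lowest. Psmb10 was also lowest on crush replicate 4, at 5.90, and the other crush arrays averaged 6.52.

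SOD1 against crushed gastrocnemius asked how disease and injury differed in the same muscle. With all arrays no member was called among 56, 0% of all probe sets were, and 6 members (10.7%) and 12.5% of all had an unadjusted p under 0.05. The median difference was 0.15 for 20S, 0.24 for 19S and 0.18 for activators, against 0.00 for all genes. The subcomplex medians became 0.32, 0.38 and 0.26 without crush replicate 4. The 19S median was 0.13 without crush replicate 2, 0.12 without crush replicate 3 and 0.15 without SOD1 replicate 2. Psmd2 differed by 0.44 (95% interval 0.13 to 0.74, adjusted p = 0.226). When crush replicate 4 was left out, 14 members were called, or 25.0%, where 8.03% of all probe sets were. Of these, 13 were higher in SOD1 muscle, with Psmd2 (0.64, adjusted p = 0.000896), Psmd8 (0.67, adjusted p = 0.0106) and Psmd4 (0.48, adjusted p = 0.0104) of the 19S regulator and Psma3 (0.44, adjusted p = 0.0138), Psma7 (0.57, adjusted p = 0.0153) and Psmb3 (0.64, adjusted p = 0.0250) of the 20S core among them. Psma2, Psma5, Psmc2, Psmc3 and Psmd11 were the other called genes that were higher. Psme1 was the 1 lower member, at -0.50 (adjusted p = 0.0244), with 7.70, 7.81, 7.55 and 7.57 in SOD1 gastrocnemius. Without crush replicate 4 the arrays did not overlap, with SOD1 higher, for 26 of 56 members (46.4%) and 12.1% of all probe sets. They did not overlap, with SOD1 lower, for 1 member and 12.7% of all. With all arrays they did so for no member, and for 2.87% (higher) and 2.61% (lower) of all. Crush replicate 4 stood out by high values of these same members. The shares of all probe sets are therefore not an even baseline for counts made without it. This contrast and the contrast of SOD1 with NTg use the same SOD1 arrays.

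Between the muscles of NTg mice, gastrocnemius against triceps, no member was called, where 1.71% of all probe sets were. At an unadjusted p under 0.05 there were 4 members (7.14%) and 14.3% of all probe sets. Among brightest probe sets Psmd8 had the largest positive difference, with 9.01, 8.96, 9.21 and 8.94 in gastrocnemius, against 8.68, 8.51, 8.45 and 8.30 in triceps. The groups did not overlap, and the difference was 0.54 (adjusted p = 0.231). With crush replicate 4 left out of the shared spread it was the 1 member called (adjusted p = 0.0339), where 2.53% of all probe sets were, and leaving out NTg triceps replicate 1 also gave 1 call. Psmc4 had the largest negative difference, -0.64 (adjusted p = 0.397). Psme1 differed by -0.41 (adjusted p = 0.253) and Psma6 by -0.38 (adjusted p = 0.148). The median was -0.03 for 20S, 0.05 for 19S and -0.01 for activators, against -0.03 for all genes (43.4% higher). After subtraction of each array's 75th percentile, the 20S and activator medians were 0.002 and 0.02.

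Of the 15 genes with more than 1 tested probe set, 3 had probe sets of opposite sign in SOD1 against NTg gastrocnemius, 3 in SOD1 against NTg triceps, 3 in SOD1 against crush and 6 in crush against NTg. There were 7 when the SOD1 effects of the 2 muscles were compared and 8 between the muscles of NTg mice. In SOD1 gastrocnemius these were Psmb1, Psmc6 and Psmd11. The dim second probe set of Psmb1, at 5.92 to 6.62 in NTg gastrocnemius, differed by -0.01, and the second of Psmc6 by -0.16.

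Other genes of the pathway were read from lists. Of all probe sets, 12.0% were called in SOD1 gastrocnemius, 0.239% in SOD1 triceps and 4.13% after crush. Without crush replicate 4 the share in SOD1 triceps was 2.22%. Of 7 tested genes for the transcription of proteasome genes and its processing, Nfe2l1 rose in SOD1 gastrocnemius (0.38, adjusted p = 0.0455) and none fell. It was at 9.97, 10.08, 9.75 and 10.05 in SOD1 gastrocnemius, against 9.51, 9.36, 9.81 and 9.64 in NTg gastrocnemius, and the groups overlapped through NTg replicate 3. In SOD1 triceps it differed by 0.31 (adjusted p = 0.251), and in crushed gastrocnemius by 0.09. The call was lost without any 1 of NTg replicates 1, 2 and 4 or SOD1 replicates 1, 2 and 4, and under 3 other settings, with adjusted p up to 0.139. Of 12 assembly factors and partners, Txnl1, a thioredoxin bound to the 19S lid, rose in SOD1 gastrocnemius (0.46, adjusted p = 0.0336). Zfand5, a zinc-finger protein that binds and activates the proteasome, fell there (-0.47, adjusted p = 0.0285) and in crushed gastrocnemius (-0.50, adjusted p = 0.0369), and it differed by 0.01 in SOD1 triceps. The Txnl1 call and both Zfand5 calls were lost with the mean of the gene's probe sets and without any 1 of the 4 NTg gastrocnemius arrays. The Txnl1 call was also lost without SOD1 replicate 3 or 4 (adjusted p up to 0.146). In SOD1 gastrocnemius the Zfand5 call was also lost without SOD1 replicate 2, 3 or 4 (adjusted p up to 0.120). In crushed gastrocnemius it was also lost without crush replicate 1, 2 or 4 and with the compared arrays only (up to 0.245). Pomp, the maturation factor of the 20S core, differed by 0.33, 0.48 and 0.37 in SOD1 gastrocnemius, SOD1 triceps and crushed gastrocnemius, with no call. Without crush replicate 4 in the shared spread, Pomp and Txnl1 rose in SOD1 triceps. The list's median was 0.04 in SOD1 gastrocnemius and 0.19 in SOD1 triceps. Of 8 shuttle and segregase genes, 0 were called in SOD1 muscle or after crush, 8 were higher in SOD1 triceps (median 0.30) and 6 in SOD1 gastrocnemius (0.16). With crush replicate 4 left out, Rad23b, a shuttle for ubiquitin-tagged proteins, and Ufd1, a partner of the segregase Vcp, rose in SOD1 triceps. None of the listed ubiquitin genes had a probe set of its own.

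Genes of antigen presentation and interferon response, which are raised with the immunoproteasome in other settings, were tested at 9 of the 15 present. Of these, 4 rose in SOD1 gastrocnemius (Cd74, H2-Aa, H2-Eb1 and H2-K1), 0 in SOD1 triceps and 0 after crush. Of all probe sets 12.0%, 0.239% and 4.13% were called in these comparisons. Of the 9 genes, 9 were higher in SOD1 gastrocnemius (median 0.88), 5 in SOD1 triceps and 6 after crush. Whether the rises reflect an interferon response or other cells was not tested. Psmb10 and Psme1 differed by -0.04 and -0.14 in the same SOD1 gastrocnemius arrays. Markers of other cells moved beside these values: 7 of 8 tested macrophage genes rose in SOD1 gastrocnemius, 0 in SOD1 triceps and 0 after crush, beside the same shares of all probe sets. The summed macrophage signal (log2 of the sum) was 10.34 to 10.86 in SOD1 gastrocnemius, 9.67 to 10.28 after crush and 9.32 to 9.79 in NTg gastrocnemius. In triceps it was 9.91 to 10.80 in SOD1 and 9.75 to 10.41 in NTg muscle. Of 13 fibre markers, 6 fibroblast and 4 endothelial markers, 0 were called in these comparisons. Of 18 lymphocyte and granulocyte markers, 2 had a probe set and 0 passed the filter. Their summed signal was 6.08, 5.65, 6.33 and 8.74 in crush replicates 1 to 4. It was 6.06 to 7.39 in SOD1 gastrocnemius and 5.21 to 5.56 in NTg gastrocnemius. Among crush arrays, replicate 4 had the lowest summed fibroblast (11.88) and endothelial (8.28) signal and the highest macrophage signal (10.28). Without crush replicate 4 in the shared spread, the fibroblast marker Lum was called in SOD1 gastrocnemius, where its difference was 0.77, and the macrophage gene Lgals3 in SOD1 triceps (2.31). In SOD1 against crush, Chrna1, Gadd45a, Myog and Lgals3 were then higher and the endothelial marker Cdh5 lower. In SOD1 triceps 0 of 13 fibre markers were higher, with a median of -0.69. The part of these cell types in the proteasome values was not tested.

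The proteasome medians are set beside the denervation markers of the same arrays here. Of 8 listed denervation genes, 6 had a probe set of their own and 3 passed the filter on the mean over all arrays. High values in SOD1 or crush arrays can lift a gene over that filter, so all probe sets are not an even baseline. Of the 3 tested, 3 rose in SOD1 gastrocnemius (Chrna1, Gadd45a and Myog), and 0 were called in SOD1 triceps (3 without crush replicate 4) or after crush. Of all probe sets 12.0%, 0.239% (2.22% without crush replicate 4) and 4.13% were called in these comparisons. Chrna1 was at 7.59, 8.86, 8.62 and 11.03 in SOD1 triceps, against 5.96, 6.05, 5.83 and 5.81 in NTg triceps. The arrays with the highest Chrna1 of their group, SOD1 gastrocnemius replicate 4, SOD1 triceps replicate 4 and crush replicate 4, also had the highest 19S median of their group, at 0.52, 0.54 and 0.70. The same held for NTg triceps replicate 2, at 0.12. In NTg gastrocnemius it did not: replicate 3 had the highest Chrna1 and the lowest 19S median, -0.01. The 20S median was highest on the same array in SOD1 triceps and after crush, while in SOD1 gastrocnemius it was highest on replicate 2 (0.38, against 0.33 on replicate 4). Activator medians of SOD1 gastrocnemius were 0.13, 0.01, -0.21 and -0.23 in replicates 1 to 4. SOD1 triceps replicate 1, at 7.59 for Chrna1, had a 19S median of 0.32, and crush replicate 3, at 7.40, had -0.06. Chrna1 is given as signal and the medians relative to NTg. Every NTg triceps array lay below every NTg gastrocnemius array for Chrna1, so near-equal signals in the different muscles are not equal rises. Crush replicates 1 to 3, at 6.97 to 7.40 for Chrna1, had 19S medians of -0.09 to -0.01. This is a description over 20 arrays in groups that lie apart, and no correlation was computed.

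**Figure D4:**
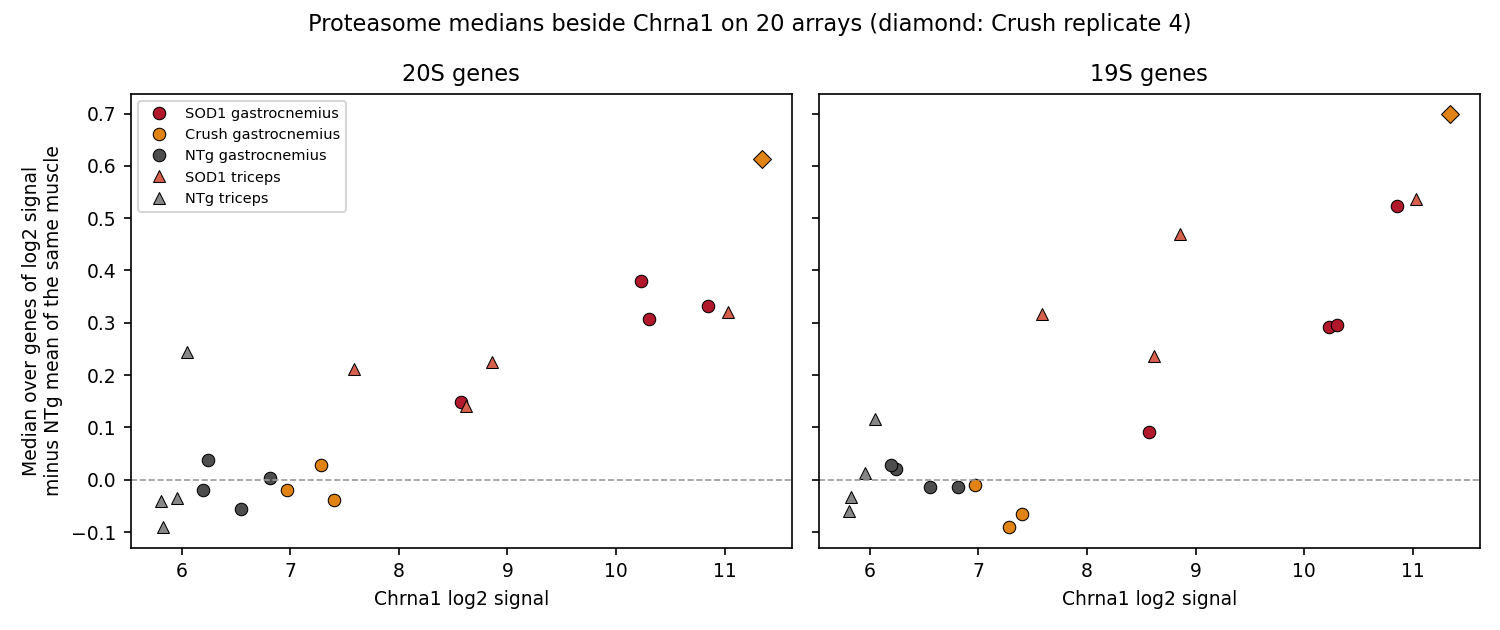
Median over 20S genes (left) and 19S genes (right) of log2 signal minus the NTg mean of the same muscle (vertical axis) beside the Chrna1 log2 signal (horizontal axis) on 20 arrays, with circles for gastrocnemius, triangles for triceps and a diamond for crush replicate 4. Crush replicate 4 has the highest Chrna1 signal, 11.34, and the highest proteasome medians, while crush replicates 1 to 3 lie beside the NTg arrays. The Chrna1 signal is not taken relative to NTg, and it is lower in NTg triceps than in NTg gastrocnemius.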

How the data were processed

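Total RNA of frozen muscle was extracted with Trizol and RNeasy columns, and biotinylated cRNA was made from 4 ug, per the labels' protocols. The deposited table holds log2 signals of 10748 probe sets on 20 arrays; the authors computed them with MAS5, per the submitters' processing notes, while the sources state no version or scaling. No further scaling was applied. No detection calls were used.

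Groups followed the sample titles. A gene was named only from a probe set with 1 symbol in the platform annotation, and each gene was represented by its brightest such probe set (highest mean over all arrays). Probe sets in the lowest 30% by mean (under 5.88) were left out. With limma 3.58.1 (R 4.3.3, eBayes with a trend), 1 mean per group was estimated from the 20 arrays, which left 15 residual degrees of freedom. Benjamini-Hochberg adjustment ran over 7523 probe sets in each of 6 comparisons. The fit was tested on simulated data. Named genes were all called members, the 3 largest differences in each direction per subcomplex and comparison with NTg, the catalytic subunits and the activators; values of other members were chosen after they were seen. The members, lists and tests were chosen with earlier results of these data known. Promoter windows came from RefSeq (GRCm38.p6); the 50 bases after the gene start were not used.

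The alternatives comprised subtracting the 75th percentile, quantile normalization, other filters, the compared arrays alone, blocks, array weights, other priors, gene means and leaving out each array. An array was left out only of comparisons with its own group, except crush replicate 4, which was left out of all. Array overlap without crush replicate 4 was chosen after seeing the data. The main fit did not pair samples by replicate number. After subtraction of group means, correlations of same-numbered arrays ran from -0.17 to 0.62 over pairs of groups. Between SOD1 gastrocnemius and SOD1 triceps, which share mice, they were 0.57, -0.10, -0.04 and 0.62 for replicates 1 to 4. Between the NTg muscles they were 0.24, 0.13, 0.21 and -0.09. Whether same-numbered arrays came from 1 mouse was not settled. The number of arrays limits the precision. Figures were drawn with matplotlib 3.10.9.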

Additional observations from a re-analysis of the deposited data

Results flagged for a closer look

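Each of 185 sets (a tested gene in 1 group of 4 arrays) was examined for an array far from the other 3, and 18 had one. Chance flags about 1 in 20 groups. Crush replicate 4 accounts for 11 of the 18. Its log2 signal was far above the other crush arrays for Psma2 (9.85, others 9.02 to 9.12), Psma3 (10.67, others 9.97 to 10.09), Psma6 (10.09, others 9.90 to 9.93), Psmb1 (10.07, others 9.22 to 9.26), Psmb3 (10.59, others 9.38 to 9.53) and Psmb4 (10.66, others 9.95 to 10.05) of the 20S core. The same held for Psmc1 (9.27, others 8.37 to 8.49), Psmc3 (10.58, others 9.53 to 9.64), Psmd2 (10.37, others 9.50 to 9.60) and Psmd8 (9.78, others 8.43 to 8.61) of the 19S regulator. It was far below them for the activator Psme1 (7.29, others 8.06 to 8.21).

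The flags outside the crush group came at about the rate that chance gives. In SOD1 triceps, replicate 3 was far below the others for the alpha ring genes Psma3 (10.55, others 10.69 to 10.71) and Psma6 (10.31, others 10.53 to 10.57). In SOD1 gastrocnemius, replicate 1 was far below for the ATPase Psmc3 (9.78, others 10.17 to 10.24), and replicate 4 was far above for the lid gene Psmd8 (9.60, others 9.04 to 9.12). In NTg muscle, triceps replicate 2 was far above for Psma3 (10.78, others 10.42 to 10.47), triceps replicate 1 for the activator Psme3 (7.01, others 6.51 to 6.56), and gastrocnemius replicate 4 for the lid gene Psmd14 (8.80, others 8.63 to 8.64).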

How the results depend on the processing

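Counts of called members depended on the spread used. The share of all probe sets called is given only as reported and without crush replicate 4 (12.0% and 17.8% in SOD1 gastrocnemius). The counts under other settings therefore do not show whether members were called more often than all probe sets. With the mean of a gene's probe sets, the count is of genes. In SOD1 against NTg gastrocnemius, 2 members were called as reported, 4 after quantile normalization, 1 after subtraction of the 75th percentile, 20 with the compared arrays only, 8 with the replicate block, 31 with array weights, 1 with the mean of a gene's probe sets, and 0 to 16 on leaving out 1 array. In SOD1 against NTg triceps, where 0 were called as reported, the replicate block gave 4, array weights 1 and leaving out 1 array 0 to 13. Crush against NTg gave 6 with array weights and 0 to 1 on leaving out 1 array, and SOD1 against crush gave 21 and 0 to 14. NTg gastrocnemius against triceps gave 1 with the compared arrays only, 3 with array weights and 0 to 1 on leaving out 1 array. The highest counts on leaving out an array came without crush replicate 4, tied in NTg gastrocnemius against triceps with NTg triceps replicate 1. Crush replicate 4 was the only array also left out of comparisons that its group did not enter. Other arrays were not tried in that way, so an effect particular to this array is not shown there. The other 99 counts stayed within 1.5 times the reported count. The cause was not tested beyond the smaller shared spread without crush replicate 4.

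Under the alternatives 190 subcomplex medians moved by less than the spread between arrays, and the 5 others were of activators, of which only 3 genes were tested. In crush against NTg this spread was 0.22 for 20S and 0.27 for 19S, and crush replicate 4 itself enters it. Leaving that array out turned the sign of both medians, from 0.10 to -0.02 and from 0.14 to -0.09, though these moves count as smaller than the spread. With a filter at 60% the activator median was -0.0445 for crush against NTg, -0.0515 for SOD1 against crush and -0.21 for NTg gastrocnemius against triceps. With the mean of a gene's probe sets it was -0.0315 for SOD1 against crush and 0.13 for NTg gastrocnemius against triceps. Psma5 stayed called in 16 of 20 settings (differences of 0.55 to 0.78) and Psmd11 in 11 of 20 (0.34 to 0.59). With 4 arrays per group and no detection calls, the 4 members under the filter were not tested.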
